A study of Mus musculus with 6 samples.

Results

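Malat1, Neat1, Miat, Snhg11, Snhg14, Kcnq1ot1, Pantr1 and Gas5 are long noncoding RNAs of the brain, most of them kept in the nucleus. These 8 genes, of 54429 with a row in every file, were chosen by their symbols with their levels and fold changes in these libraries already known, so their differences are given as a description. All 8 had enough counts to be tested, and the lowest count of any of them in a library was 522, which carries a counting error of 4.4%. The RNA came from the prefrontal cortex (PFC) of 6-month-old mice in 3 groups of 2 libraries. WT mice (C57BL/6 x C3H) and PS19(P301S) mice, written Tau here, had been given vehicle. The third group, Tau+UNC0642, held PS19(P301S) mice given UNC0642, an inhibitor of the histone methyltransferases EHMT1 and EHMT2, at 1 mg/kg a day for 3 days, with tissue taken 24 h after the last injection. The P301S transgene is a mutant human tau driven by the mouse prion promoter in the PS19 line, and it is shared by both Tau groups.

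Several long noncoding RNAs of this kind act within the nucleus. Malat1 gathers at nuclear speckles, the sites where splicing factors are stored, and Neat1 is the scaffold of paraspeckles. Miat, also called Gomafu, and Snhg11 are nuclear or neuron-enriched transcripts, while Snhg14 and Kcnq1ot1 are imprinted RNAs read from the paternal chromosome and silence or overlap genes on the opposite strand. Kcnq1ot1 is known to draw H3K9 methylation by EHMT2, the target of UNC0642, to its domain in the placenta. Gas5 and the Snhg genes carry small nucleolar RNAs in their introns, and the spliced Gas5 RNA is short-lived because it is broken down when translated. Poly(A) selection was not used for these libraries, which were depleted of ribosomal RNA, so that nuclear and unspliced RNA was kept alongside mature mRNA.

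The libraries held 17005664 to 28972176 counts. Xist, the RNA of the inactive X chromosome, had 8107, 5340 and 4104 counts in WT replicate 2 and Tau replicates 1 and 2, and 2 to 5 counts in the other libraries. The Y-linked Ddx3y was the reverse, so both Tau libraries had the female pattern and both Tau+UNC0642 libraries the male one. The effect of UNC0642 and that of sex therefore cannot be told apart in the comparison of these groups. A sex term, used below as an alternative fit, is set by the male and the female WT library alone and does not separate them. The neuronal markers summed to 7421 to 8274 CPM (counts relative to the library size, which was scaled by TMM) in all libraries, with none of the 10 at 0. These are markers of neurons in general, so they do not test the label of PFC. Markers of striatal neurons summed to 404 CPM in Tau replicate 2 and to 183 to 221 CPM in the others, and 9 of 10 were called higher in Tau than in WT. Mature oligodendrocyte markers likewise summed to 5794 CPM in Tau replicate 2 and to 1526 to 3093 CPM elsewhere. Other marker sets were lower in Tau, as some members were. Endothelial markers summed to 224 and 217 CPM in WT, 159 and 168 CPM in Tau, and 159 and 207 CPM in Tau+UNC0642, with 5 of 10 called lower in Tau than in WT and a median log2 fold change of -0.41. The medians of 5 blood and 9 meningeal fibroblast markers were -0.60 and -0.50, with 2 and 3 called lower. The part of these cells in the members' levels was not tested. In bulk tissue, fewer cells of a type and less RNA per cell cannot be told apart. A gene was called at an unadjusted p under 0.05 and a fold of at least 1.2, the threshold of the study, by edgeR's quasi-likelihood test over 20409 genes. Benjamini-Hochberg adjusted p-values over all 20409 are given beside it. Of all genes, 3.72% were called higher and 6.10% lower in Tau than in WT. The shares were 3.73% and 3.95% in Tau+UNC0642 against Tau, and 3.77% and 5.69% in Tau+UNC0642 against WT.

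The 8 RNAs took 0.594% of all counts in Tau replicate 1 and 0.789% to 0.908% in the other 5 libraries. Malat1 alone gave 83.4% to 85.4% of these counts. Without Malat1 the others summed to 953 and 1168 CPM in Tau, against 1354 and 1442 CPM in WT and 1330 and 1331 CPM in Tau+UNC0642. Both Tau libraries were thus below the 4 others on this sum, and Tau replicate 1 was the lower of the pair. Snhg11 was the largest part of it, with 679.8 and 678.5 CPM in WT, 412 and 478 CPM in Tau, and 546 and 584 CPM in Tau+UNC0642. The order of the sum therefore does not describe the remaining RNAs as a group. Per kilobase of exon, Malat1 averaged 972 CPM over the 6 libraries, Snhg11 66.1, Miat 15.2, Gas5 12.8, Pantr1 8.30, Kcnq1ot1 2.51 and Neat1 1.51, and Snhg14 ranged from 6.78 to 8.91. The library ranges of Miat and Gas5 overlapped on this scale, as did those of Gas5, Pantr1 and Snhg14 and those of Kcnq1ot1 and Neat1. Kcnq1ot1 is annotated as 1 exon of 93.1 kb, and the exons of Neat1 together cover 20.8 kb, so their counts were spread over long stretches.

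**Figure D1:**
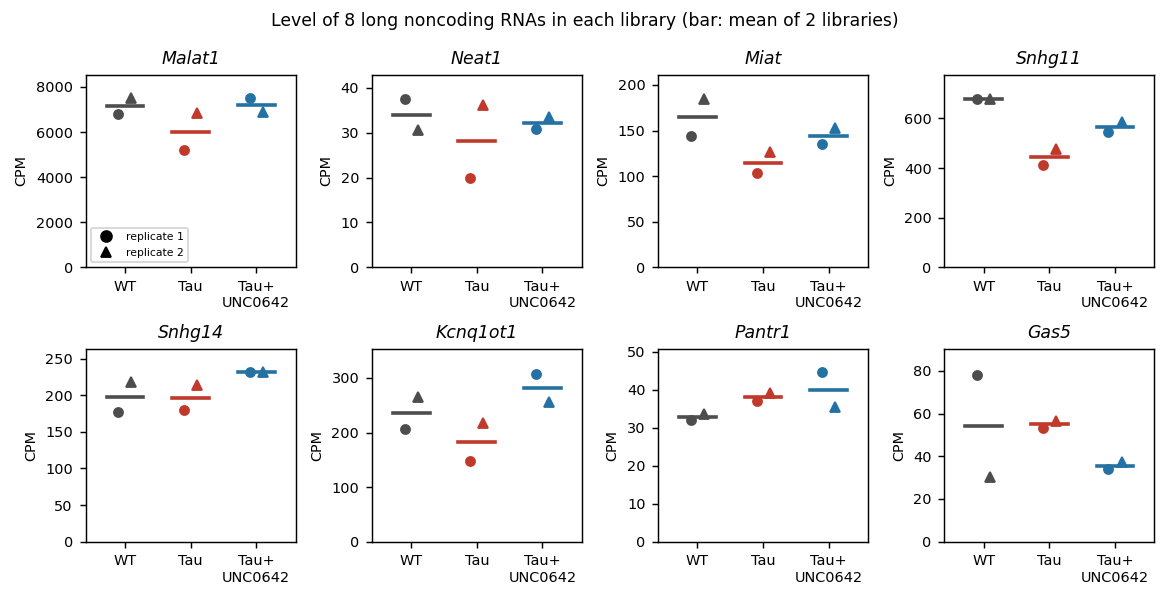
CPM (TMM-scaled, each axis from 0) of the 8 long noncoding RNAs in the WT, Tau and Tau+UNC0642 libraries. Points are libraries (circle, replicate 1; triangle, replicate 2) and bars are means of 2 libraries. The 3 groups of Snhg11 do not overlap, whereas the WT points of Gas5, at 78.3 and 30.5 CPM, lie on both sides of all others.

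Snhg11 and Miat were the neuronal members with the clearest difference between Tau and WT. Snhg11 lies at chr2:158375638-158386145 on the plus strand (GRCm38) and is annotated as protein-coding in GENCODE M21, though it is known as a noncoding small nucleolar RNA host gene of neurons. It had 679.8 and 678.5 CPM in WT, 412 and 478 CPM in Tau, and 546 and 584 CPM in Tau+UNC0642. The groups did not overlap, with Tau lowest and Tau+UNC0642 between Tau and WT. Against WT the log2 fold change in Tau was -0.61 (SE 0.086, n = 2 libraries a group, edgeR adjusted p = 0.0409), and Snhg11 was the 1 member whose adjusted p passed 0.05 in this fit, as 0.157% of all genes did. By the DESeq2 Wald test Miat passed as well, and with no filter Malat1, Miat and Kcnq1ot1 did. Snhg11 is on a list of reversed genes that the study chose on these same libraries, so this is not independent evidence of its direction. With UNC0642 its log2 fold change against Tau was 0.34 (SE 0.086, edgeR adjusted p = 0.352), and against WT it was -0.27 (edgeR adjusted p = 0.269). Among females, the Tau libraries had 0.607 to 0.705 times the WT replicate 2 level, and among males the Tau+UNC0642 libraries had 0.803 to 0.859 times the WT replicate 1 level. The adjusted p of Snhg11 in Tau against WT ranged from 4.8e-12 to 0.121 over the alternatives, and was 0.118 with a term for sex. The promoter window of Snhg11 in RefSeq, chr2:158375463-158375762 on the plus strand (GRCm38.p6), spans 250 bases before to 50 after its start and is shown because Snhg11 had the smallest p of the 8. Capitals in this and the windows that follow mark matches on either strand to a CCAAT box (CCAAT), a GC box (GGGCGG) or a cAMP response element (TGACGTCA).

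Snhg11: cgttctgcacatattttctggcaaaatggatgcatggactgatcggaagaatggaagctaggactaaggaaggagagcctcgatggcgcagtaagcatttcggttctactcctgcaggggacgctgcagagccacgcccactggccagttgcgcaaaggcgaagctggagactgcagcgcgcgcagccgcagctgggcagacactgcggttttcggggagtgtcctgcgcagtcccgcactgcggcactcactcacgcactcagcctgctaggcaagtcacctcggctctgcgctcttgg

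None of these motifs was found in the Snhg11 window, which held 21 CpG dinucleotides. Over 32851 RefSeq windows of the same length, the median was 7 CpG (quartiles 3 and 20), 37.4% held the CCAAT box, 35.7% the GC box and 1.79% the cAMP response element.

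Miat (chr5:112213228-112229395, minus strand) was higher in both WT libraries than in both Tau libraries. It had 144 and 185 CPM in WT, 104 and 126 CPM in Tau, and 135 and 152 CPM in Tau+UNC0642, so that the ranges of Tau+UNC0642 and WT overlapped and that of Tau lay below both. The log2 fold change was -0.52 in Tau against WT (SE 0.13, edgeR adjusted p = 0.213) and 0.33 in Tau+UNC0642 against Tau (SE 0.13, edgeR adjusted p = 0.517). In Tau against WT the adjusted p of Miat was 0.0193 by the DESeq2 Wald test and 5.06e-06 by edgeR with no filter on low counts, and was above 0.05 under all other alternatives. Within females, both Tau libraries had 0.561 to 0.683 times the level of WT replicate 2. Within males, Tau+UNC0642 had 0.940 to 1.06 times that of WT replicate 1.

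The RNAs of the nuclear bodies, Malat1 and Neat1, are neighbours on chromosome 19 (Malat1 at chr19:5795690-5802672 and Neat1 at chr19:5824708-5845478, both on the minus strand). Malat1 had 6817 and 7513 CPM in WT, 5197 and 6821 CPM in Tau, and 7516 and 6872 CPM in Tau+UNC0642. Tau replicate 1 was the lowest library, and Tau replicate 2 was level with WT replicate 1. The log2 fold change was -0.25 in Tau against WT (SE 0.12, edgeR adjusted p = 0.421) and 0.26 in Tau+UNC0642 against Tau (SE 0.12, edgeR adjusted p = 0.573), and neither was called. Without Tau replicate 1 the log2 fold change of Malat1 in Tau against WT was -0.07, and without Tau replicate 2 it was -0.46. Neat1 had 37.5 and 30.5 CPM in WT, 19.9 and 36.2 CPM in Tau, and 30.9 and 33.4 CPM in Tau+UNC0642. The pair of Tau libraries differed by 1.82-fold, more than any group mean from another, and no comparison of Neat1 was called (edgeR log2 fold change -0.29, SE 0.22, adjusted p = 0.630 in Tau against WT). Without Tau replicate 1 the sign of Neat1 in Tau against WT turned, to 0.09. Tau replicate 2 and WT replicate 1, the libraries with the most Neat1, also had the highest sums of the 10 oligodendrocyte markers, 5794 and 3093 CPM (range 1526 to 3093 in WT, 2138 to 5794 in Tau and 2241 to 2392 in Tau+UNC0642). All 10 of these markers had counts and 4 were called higher in Tau than in WT, where 3.72% of all genes were. The Tau libraries differed, with a median log2 CPM of these markers, relative to the mean of the libraries, of -0.32 in Tau replicate 1 and 1.13 in Tau replicate 2. Tau replicate 1 thus lay between the WT libraries, whose medians of these markers were 0.23 and -0.75. The part of these markers' cells in the level of Neat1 was not tested. The short and long forms of Neat1 share their start and cannot be told apart in counts per gene.

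The proteins of these bodies were measured as mRNA. Of 14 paraspeckle protein genes, 1 was called lower in Tau than in WT, where 6.10% of all genes were. This was Zc3h6, with 34.5 and 31.3 CPM in WT and 23.4 and 21.9 CPM in Tau (edgeR adjusted p = 0.157). Sfpq, an RNA-binding protein that Neat1 holds in paraspeckles, was the 1 of the 14 called higher in Tau+UNC0642 than in Tau, where 3.73% of all genes were. It had 112 and 122 CPM in Tau and 147 and 139 CPM in Tau+UNC0642 (edgeR adjusted p = 0.461). Nothing is read from these counts of calls about paraspeckles. Of 14 nuclear speckle genes, none was called in either of these comparisons (edgeR, with none of 14 at an adjusted p under 0.05). Srrm1 and Srrm2, genes for speckle proteins, were called lower in Tau+UNC0642 than in WT, where 5.69% of all genes were. In that comparison 2 of the 14 paraspeckle genes were called lower as well, and nothing is read from these counts. The median log2 fold change in Tau against WT was 0.01 over the paraspeckle genes and 0.02 over the speckle genes. Both medians lay close to that of all genes tested, which was at 0 to 2 decimals. Among 10 tested neighbours of Malat1 and Neat1, Ltbp3, a gene for a protein that binds latent TGF-beta, was the only one called in Tau against WT. It had 10.4 and 11.1 CPM in WT and 6.58 and 5.84 CPM in Tau, on the strand opposite to Malat1 and 37157 bases away.

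Kcnq1ot1 and Snhg14 are the imprinted members, both on chromosome 7 and both antisense to a protein-coding gene. Kcnq1ot1 (chr7:143203458-143296549, minus strand) had 206 and 265 CPM in WT, 148 and 218 CPM in Tau, and 308 and 257 CPM in Tau+UNC0642. All values of Tau+UNC0642 lay above those of Tau, and WT overlapped with both. Its log2 fold change was 0.62 in Tau+UNC0642 against Tau (SE 0.17, edgeR adjusted p = 0.395), the largest of the called members in this comparison, and -0.37 in Tau against WT (SE 0.17, edgeR adjusted p = 0.421), which was not called. It was still called in Tau+UNC0642 against Tau without Tau replicate 1, as the 1 member for which this held, with a log2 fold change of 0.37 there, 0.93 without Tau replicate 2 and 0.99 with a sex term. The value with a sex term rests on the gap between the WT libraries. Within males, Tau+UNC0642 had 1.25 to 1.49 times the level of WT replicate 1, and within females Tau had 0.558 to 0.823 times that of WT replicate 2. Its RefSeq promoter window, chr7:143296498-143296797 on the minus strand, is shown because the known antisense RNA starts there and because it held 3 CCAAT boxes, at 188, 148 and 67 bases before the start.

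Kcnq1ot1: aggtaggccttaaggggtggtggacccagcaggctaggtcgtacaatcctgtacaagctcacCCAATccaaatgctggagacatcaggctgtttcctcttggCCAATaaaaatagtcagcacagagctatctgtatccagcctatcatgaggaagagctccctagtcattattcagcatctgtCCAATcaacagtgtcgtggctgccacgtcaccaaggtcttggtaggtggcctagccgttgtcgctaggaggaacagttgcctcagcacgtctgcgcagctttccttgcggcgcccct

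The protein-coding partner Kcnq1, a potassium channel gene, was near the limit of detection at 0.515 to 1.54 CPM and shares 121 exon bases with Kcnq1ot1. Cdkn1c, a cell cycle inhibitor that Kcnq1ot1 silences on the paternal chromosome, had 5.20 and 5.04 CPM in WT, 4.54 and 4.52 CPM in Tau, and 3.43 and 5.07 CPM in Tau+UNC0642, and was not called (edgeR log2 fold change -0.08, SE 0.24, adjusted p = 0.953 in Tau+UNC0642 against Tau). Of the 8 tested genes on a list drawn up for this domain, 1 was called lower in Tau than in WT, which was Kcnq1. None of the 8 was called in Tau+UNC0642 against Tau, and Osbpl5 was called lower in Tau+UNC0642 than in WT. A tested neighbour off that list, 4933417O13Rik, lies 26223 bases away on the same strand as Kcnq1ot1. It was called lower in Tau+UNC0642 than in Tau (edgeR log2 fold change -3.35, SE 1.06, adjusted p = 0.432) and than in WT. Its level was near the floor, with 0.237 and 0.469 CPM in WT, 0.358 and 0.802 CPM in Tau, and 0 and 0.0882 CPM in Tau+UNC0642.

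Snhg14 (chr7:59307924-59975759, minus strand) is the long paternal transcript that runs through the Prader-Willi and Angelman region and reads Ube3a, a ubiquitin ligase gene, in antisense in neurons. It had 177 and 218 CPM in WT, 179 and 214 CPM in Tau, and 232 and 232 CPM in Tau+UNC0642. The ranges of WT and Tau overlapped, and Tau+UNC0642 lay above both. The log2 fold change was -0.01 in Tau against WT, 0.24 in Tau+UNC0642 against Tau (SE 0.11, edgeR adjusted p = 0.570) and 0.23 in Tau+UNC0642 against WT (edgeR adjusted p = 0.441), and none was called. Ube3a had 259 and 327 CPM in WT, 271 and 310.1 CPM in Tau, and 354 and 319 CPM in Tau+UNC0642. In WT and in Tau the library with more Snhg14 also had more Ube3a. They share 1803 exon bases on opposite strands, and since the strand setting of the counting is not given in the sources used here, their reads cannot be told apart with certainty. Snrpn, the coding gene at the paternal start of the unit, had 349 to 405 CPM and was not called. A230103L15Rik, a transcript inside Snhg14 on the same strand, had 17.2 and 26.7 CPM in WT, 13.3 and 20.0 CPM in Tau, and 29.8 and 26.2 CPM in Tau+UNC0642, and was called higher with UNC0642 (edgeR log2 fold change 0.76, SE 0.22, adjusted p = 0.420). Of 7 tested genes on a list drawn up for this region, none was called in Tau against WT. Gm44830, a TEC gene off that list, lies 14822 bases from Snhg14 on the opposite strand and was called lower in Tau than in WT. It had 4.49 and 6.33 CPM in WT and 2.47 and 3.72 CPM in Tau (edgeR log2 fold change -0.83, SE 0.32, adjusted p = 0.360). Magel2 was called lower with UNC0642, at a level under 1 CPM in every library.

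Pantr1 and Gas5 did not share the lower level in Tau. Pantr1 (chr1:42590782-42694842, minus strand) is expressed beside Pou3f3, a transcription factor gene of cortical neurons. It had 32.1 and 33.7 CPM in WT, 37.1 and 39.1 CPM in Tau, and 44.7 and 35.4 CPM in Tau+UNC0642, so WT lay below all 4 transgenic libraries. It was called higher in Tau+UNC0642 than in WT (edgeR log2 fold change 0.28, SE 0.12, adjusted p = 0.393), a call that most alternatives ended. Pou3f3 had 88.1 and 102 CPM in WT, 99.6 and 109.9 CPM in Tau, and 115 and 107 CPM in Tau+UNC0642 (edgeR log2 fold change 0.23, adjusted p = 0.383 in Tau+UNC0642 against WT, not called).

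Gas5 (chr1:161034422-161038539, plus strand) had 78.3 and 30.5 CPM in WT, 53.4 and 56.5 CPM in Tau, and 33.9 and 37.2 CPM in Tau+UNC0642. The WT libraries, a male and a female, differed by more than any other pair of replicates of a member, WT replicate 2 having 0.390 times the level of replicate 1. The Tau libraries lay between them and the Tau+UNC0642 libraries below Tau. None of the 3 comparisons was called (edgeR log2 fold change 0.01, SE 0.31 in Tau against WT, and -0.63, SE 0.32, adjusted p = 0.600 in Tau+UNC0642 against Tau). Within a sex the values ran in opposite directions, with 1.75 to 1.85 times the level of the female WT library in the Tau libraries and 0.433 to 0.475 times that of the male WT library in the Tau+UNC0642 libraries. Each of these ratios rests on 1 WT library. Gas5 was called lower in Tau+UNC0642 than in Tau when these groups were fitted alone, with no filter, without WT replicate 1, without WT replicate 2 and with a sex term. With the sex term, its log2 fold changes were 0.85 in Tau against WT, -1.99 in Tau+UNC0642 against Tau (edgeR adjusted p = 0.00294, range over alternatives 2.19e-05 to 1) and -1.14 in Tau+UNC0642 against WT (edgeR adjusted p = 0.00155). The sex term is set by the WT pair alone, so these values carry the gap between its male and female library into the other groups. Without WT replicate 1 the log2 fold change of Gas5 in Tau against WT was 0.84 and without WT replicate 2 it was -0.51. Over the other small nucleolar RNA hosts, the median log2 CPM relative to the mean of the libraries was 0.15 in WT replicate 1 and -0.03 in WT replicate 2. Of 14 such hosts that could be tested, only Snhg20 was called in any comparison, lower in Tau than in WT with 12.5 and 10.7 CPM in WT and 6.69 and 8.70 CPM in Tau. RefSeq gives Gas5 a pair of start windows. The downstream one, chr1:161034916-161035215 on the plus strand, is shown because its start, ctttcgga, opens with the pyrimidine run for which Gas5 is known and because it held 3 GC boxes and the cAMP response element, 46 bases before the start.

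Gas5: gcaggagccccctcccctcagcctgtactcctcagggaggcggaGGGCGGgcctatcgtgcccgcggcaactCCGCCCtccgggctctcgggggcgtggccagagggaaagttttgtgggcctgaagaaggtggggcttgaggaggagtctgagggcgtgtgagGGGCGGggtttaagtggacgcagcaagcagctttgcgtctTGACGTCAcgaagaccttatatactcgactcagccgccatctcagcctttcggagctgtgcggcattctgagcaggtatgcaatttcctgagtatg

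Across the 8 RNAs, 2 were called lower and none higher in Tau than in WT (Miat and Snhg11), where 6.10% of all genes were called lower and 3.72% higher. The median log2 fold change of the 8 was -0.27. In Tau+UNC0642 against Tau, 3 were called higher (Miat, Snhg11 and Kcnq1ot1) and none lower, with a background of 3.73% and 3.95% of all genes and a median of 0.25, and none passed an adjusted p of 0.05 by edgeR with all libraries and the filter, or by the DESeq2 Wald test, which called 4 members by p and fold. By edgeR 0.0196% of all genes passed. With no filter 5 members passed (Malat1, Miat, Snhg11, Kcnq1ot1 and Gas5), and Gas5 also passed with a sex term and without WT replicate 2. Against WT, the Tau+UNC0642 libraries had Pantr1 called higher and Snhg11 called lower, with a background of 3.77% and 5.69%, a median of -0.04, and no member at an adjusted p under 0.05 by edgeR in the same fit (0.216% of all genes) or by DESeq2. Gas5 passed there with a sex term, without WT replicate 2 and with no filter, and Snhg11 passed with no filter. The first and second comparisons share the Tau libraries, so a low Tau library gives a negative value in one and a positive value in the other. Because the members were chosen with these contrasts known, nothing is read from the counts against the background.

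**Figure D2:**
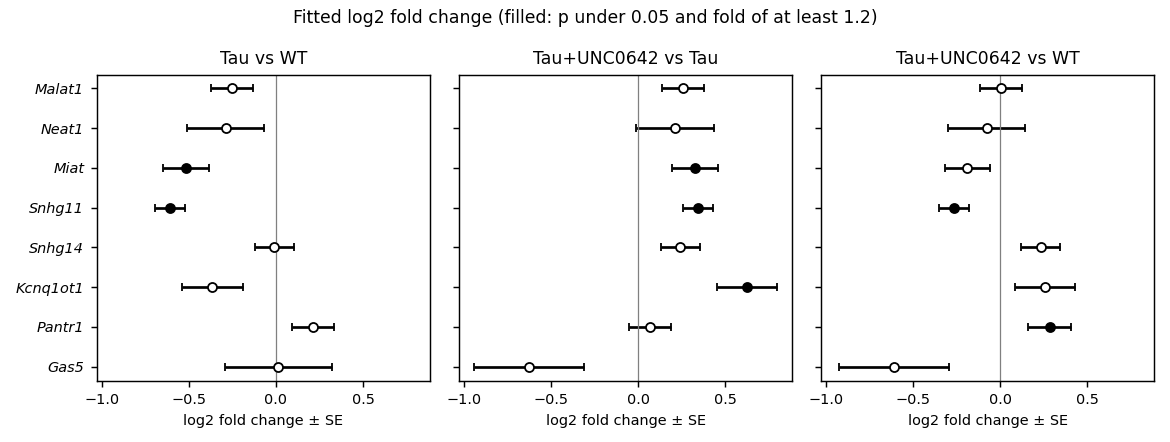
Fitted log2 fold change (points) with standard error (bars) of each long noncoding RNA in the 3 comparisons. Filled points were called at a p under 0.05 and a fold of at least 1.2, which holds for Miat and Snhg11 in Tau against WT, for Miat, Snhg11 and Kcnq1ot1 in Tau+UNC0642 against Tau, and for Snhg11 and Pantr1 in Tau+UNC0642 against WT.

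Much of the difference rested on Tau replicate 1, which was also the deepest library at 28972176 counts. The median of the 8, taken relative to each RNA's mean log2 CPM over the 6 libraries, was -0.40 in Tau replicate 1, 0.03 in Tau replicate 2 and 0.03 to 0.12 in the WT and Tau+UNC0642 libraries. Without Tau replicate 1, the median log2 fold change of the 8 in Tau against WT was -0.01, while Miat and Snhg11 were still called. Without Tau replicate 2 it was -0.56 and 5 were called. With UNC0642 against Tau, 1 member was called without Tau replicate 1 and 6 without Tau replicate 2.

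**Figure D3:**
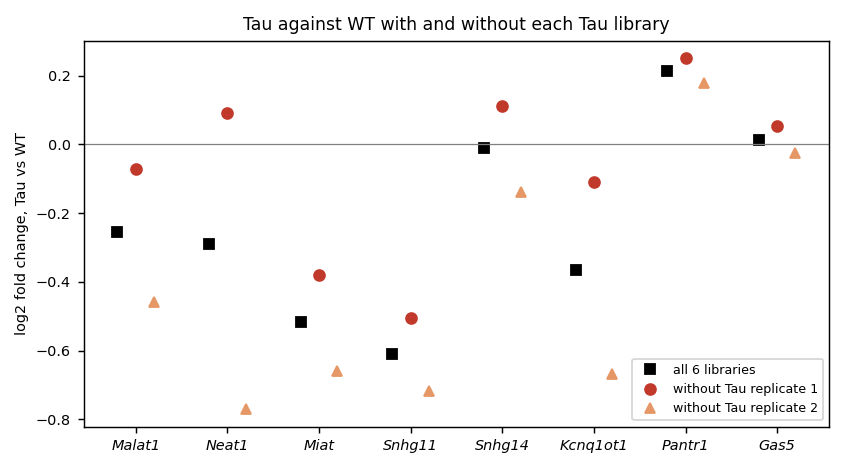
Log2 fold change in Tau against WT of the 8 long noncoding RNAs, fitted with all 6 libraries (squares), without Tau replicate 1 (circles) and without Tau replicate 2 (triangles). Neat1 moves from -0.77 without Tau replicate 2 to 0.09 without Tau replicate 1, while Snhg11 stays between -0.72 and -0.51.

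Intronic RNA, which is kept in the nucleus, was also lowest in Tau replicate 1. Its counts were taken from 1434 genes of the annotation class TEC (transcripts that still await experimental proof) that lie wholly in introns of protein-coding genes on the same strand, a measure chosen after the data were seen. They summed to 1906 and 2274 CPM in WT, 1149 and 1632 CPM in Tau, and 2240 and 1878 CPM in Tau+UNC0642. Both Tau libraries were below the 4 others and Tau replicate 1 was lowest, as it was for Malat1, Neat1, Miat, Snhg11 and Kcnq1ot1. Divided by this intronic sum, Malat1 came to 3.58 and 3.30 in WT, 4.52 and 4.18 in Tau, and 3.35 and 3.66 in Tau+UNC0642, so that Tau was then highest. On the same scale Snhg11 came to 0.357 and 0.298 in WT, 0.358 and 0.293 in Tau, and 0.244 and 0.311 in Tau+UNC0642, and the ranges of Tau and WT overlapped. Those of Miat overlapped too, at 0.0755 and 0.0812 in WT and 0.0902 and 0.0773 in Tau, with 0.0604 and 0.0811 in Tau+UNC0642. Kcnq1ot1 came to 0.108 and 0.117 in WT, 0.129 and 0.134 in Tau and 0.137 in both Tau+UNC0642 libraries. Intronic RNA thus moved with some of the members, and its part in their differences was not tested. Between WT and Tau, Gas5, Pantr1 and Snhg14 did not follow it, nor did Neat1 apart from its low level in Tau replicate 1. Within WT and within Tau, the library with more intronic RNA also had more Snhg14 and more Pantr1. Neat1 had 36.2 CPM in Tau replicate 2 and 30.5 CPM in WT replicate 2, where the intronic sum was highest. Gas5 was lowest in WT replicate 2, the library with the most intronic RNA, Pantr1 was higher in Tau than in WT, and Snhg14 was level between Tau and WT.

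**Figure D4:**
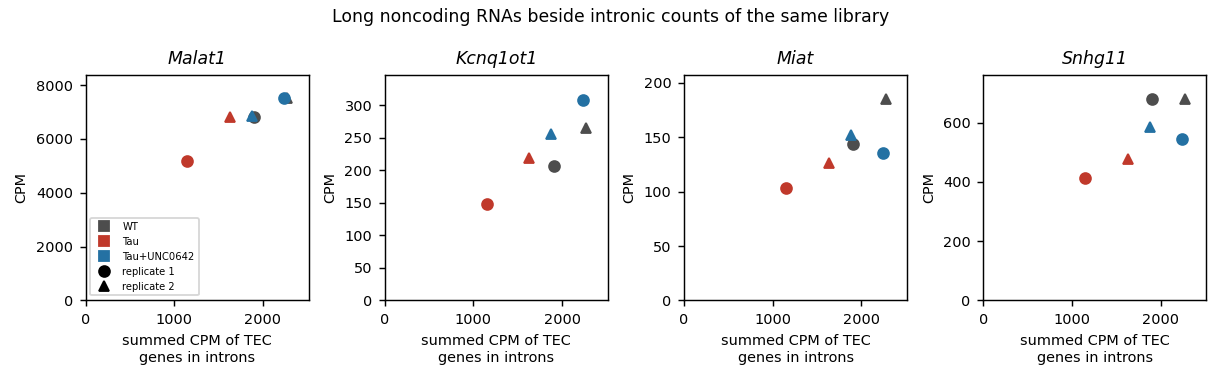
CPM of Malat1, Kcnq1ot1, Miat and Snhg11 (vertical axes) against the summed CPM of TEC genes in introns (horizontal axis) in each library, coloured by group (circle, replicate 1; triangle, replicate 2). Tau replicate 1, at 1149 CPM of intronic genes, is the lowest point on both axes in all 4 panels. Gas5, Pantr1 and Snhg14, which did not follow the intronic sum between WT and Tau, are not drawn. Neat1, which followed it only in being lowest in Tau replicate 1, is not drawn either. All values come from the same libraries, so the points share depth and RNA preparation.

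Further nuclear RNAs were examined as lists, which were drawn up with earlier results of these data known. Of 30 mRNAs known to keep introns in the nucleus, 8 were called lower and none higher in Tau than in WT, with a median log2 fold change of -0.14, where 6.10% of all genes were called lower and 3.72% higher. Of these 8, 5 are on the list of reversed genes that the study chose on these libraries, Luc7l3 and Snrnp70 among them. This is not independent evidence of their direction in either comparison. Over the 25 genes not on that list the median was -0.11 with 3 called lower, against the same 6.10%. The most abundant of the 8 were Rsrp1, with 223 and 237 CPM in WT and 171 and 185 CPM in Tau and 164 and 168 CPM in Tau+UNC0642, and Luc7l3, a splicing factor, with 178 and 185 CPM in WT, 133 and 165 CPM in Tau and 177 and 186 CPM in Tau+UNC0642. Snrnp70, a protein of the U1 particle, had 175 and 174 CPM in WT and 124 and 148 CPM in Tau and 146 and 162 CPM in Tau+UNC0642, and Srsf5, also a splicing factor, had 160.3 and 147 CPM in WT and 112 and 144 CPM in Tau and 132 and 135 CPM in Tau+UNC0642. The order was thus not shared, since Luc7l3 overlapped with WT in Tau+UNC0642 while Rsrp1 was lowest there and was called lower than in WT (edgeR log2 fold change -0.47, adjusted p = 0.0490). With UNC0642, Luc7l3, which the study had listed as reversed, was the 1 gene of the 30 called higher than in Tau. The median was 0.16. The list's median relative to the mean of the 6 libraries was -0.18 in Tau replicate 1 and -0.01 to 0.09 elsewhere.

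Of 23 other long noncoding RNAs that could be tested, 3 were called lower in Tau than in WT and 3 higher in Tau+UNC0642 than in Tau, with medians of -0.12 and 0.10, where 6.10% and 3.73% of all genes were called so. Meg3, an imprinted RNA of neurons, was called in both. It had 994 and 1148 CPM in WT, 671 and 852 CPM in Tau, and 959 and 1075 CPM in Tau+UNC0642, with a log2 fold change of -0.49 (SE 0.12, edgeR adjusted p = 0.198) and then 0.42 (SE 0.12, edgeR adjusted p = 0.401). Firre and Ftx, RNAs transcribed from the X chromosome, were the others called lower in Tau, with 38.2 to 40.9 CPM in WT and 26.5 and 36.2 CPM in Tau for Firre. Mir124a-1hg, host of a neuronal microRNA, was among those called higher with UNC0642, with 46.0 and 54.0 CPM in Tau and 57.8 and 65.1 CPM in Tau+UNC0642. For these RNAs too Tau replicate 1 was lowest in the median, at -0.17 against 0.00 to 0.05 in the others.

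The small nuclear RNA Rn7sk and cytoplasmic mRNAs were set beside these. Rn7sk, a small nuclear RNA that holds back transcription elongation, had 15480 and 16150 CPM in WT, 14980 and 17960 CPM in Tau, and 16850 and 16580 CPM in Tau+UNC0642, with log2 fold changes of 0.06 in Tau against WT and 0.02 in Tau+UNC0642 against Tau. Of 33 ribosomal protein mRNAs, which are cytoplasmic, 1 was called higher and 1 lower in Tau than in WT, with a median log2 fold change of 0.03. Their median by library lay between -0.07 and 0.04. All 37 rows of mitochondrial genes were listed at 0 in every library, so mitochondrial RNA gave no comparison.

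**Figure D5:**
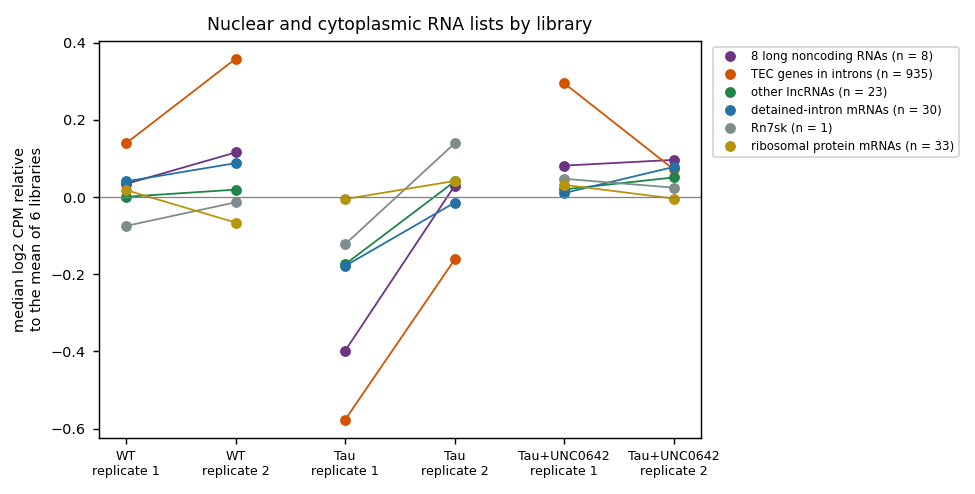
Median log2 CPM relative to the mean of the 6 libraries (vertical axis) for the 8 long noncoding RNAs, TEC genes in introns that passed the count filter, other long noncoding RNAs, detained-intron mRNAs, Rn7sk and ribosomal protein mRNAs, by library (horizontal axis). Lines join the replicates of a group and mark no order. In Tau replicate 1 the 8 RNAs are at -0.40 and the ribosomal protein mRNAs at -0.01.

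The genes with the pattern most like a member over the 6 libraries were found among 10199 tested genes of at least 10 CPM on average, after the log2 CPM of each gene had been centred on its mean, by the smallest root mean square distance from the member. For Malat1 these were 4632427E13Rik, 3110039I08Rik and A230057D06Rik, all annotated as noncoding, and the closest differed by 0.0483. For Snhg11 they were Plekho2 at 0.061, A730017L22Rik and Wdr90. Plekho2, an adaptor protein gene, had 16.9 and 16.8 CPM in WT, 10.8 and 11.8 CPM in Tau, and 13.7 and 13.3 CPM in Tau+UNC0642, the same order of groups as Snhg11. For Neat1 they were Maml3, a Notch coactivator gene, Ttn and Mcam, and the closest differed by 0.0827. For Gas5 they were Slc7a3, Tspan15 and Tgfa. Slc7a3, an amino acid transporter gene, differed least at 0.133, with 18.3 and 9.61 CPM in WT, 14.7 and 14.9 CPM in Tau, and 9.83 and 9.84 CPM in Tau+UNC0642, and so repeated the gap between the WT libraries.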

How the data were processed

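RNA of the PFC was sequenced in 6 libraries, 2 from different mice in each of 3 groups. Per the labels, DNase-treated total RNA was freed of ribosomal RNA with a stranded kit, and after adapter trimming by Cutadapt the reads were aligned by TopHat2 to RefSeq mRNAs, while the submitters' processing notes name the mm10 build and featureCounts. The authors deposited raw counts per gene, without normalization. The strand setting of featureCounts is not given in the sources used here. Dates stood in place of 26 gene symbols in WT replicate 2 and Tau replicate 2, and those rows were matched by position. Positions and gene types came from GENCODE M21 (GRCm38) by symbol, and promoter windows from RefSeq, which matched 6 of the 8 members.

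The quasi-likelihood fit of edgeR 4.0.16 (R 4.3.3) took all 6 libraries, with 1 coefficient for each group, after filterByExpr (minimum count 10, minimum total 15) and TMM scaling (3 residual degrees of freedom, biological coefficient of variation 12.3%). Calls needed a p under 0.05 and a fold of at least 1.2, and p-values were adjusted by Benjamini-Hochberg over 20409 genes. SEs come from the fit and CPM from the scaled counts. P-values measure the spread between these mice only. Tables and figures were made with Python 3.11.15 and matplotlib 3.10.9. Alternatives were other scalings, filters, thresholds, DESeq2 1.42.0, a replicate block, a sex term and fits without each library.

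The members, gene lists and tests were chosen with earlier results of these data known. Genes named are the members, Xist and Y-linked genes, up to 4 of the most abundant called genes of each list, genes within 50000 bases of a member, and the 3 genes most like Malat1, Neat1, Snhg11 and Gas5. Cdkn1c, Snrpn and Rn7sk, which no list call named, were chosen after their values were seen, as was the intronic measure.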

Additional observations from a re-analysis of the deposited data

How the results depend on the processing

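With 2 mice a group, leaving out a library often changed a call. The share of all genes called was computed for the main fit alone. The numbers of members called under the alternatives thus stand without a background, and nothing is read from them about the members. Over the fits without each library, the called members numbered 2 to 5 in Tau against WT (5 without WT replicate 1 and 5 without Tau replicate 2), 1 to 6 in Tau+UNC0642 against Tau (1 without Tau replicate 1 and 6 without Tau replicate 2) and 0 to 4 in Tau+UNC0642 against WT (0 without Tau+UNC0642 replicate 1 and 4 without WT replicate 2). Where a group was left with 1 library, it was assumed to vary like the other groups. The median log2 fold changes ranged from -0.56 to -0.0082 in Tau against WT and from 0.10 to 0.46 in Tau+UNC0642 against Tau. For Tau against WT, Snhg14 ranged from -0.16 to 0.15, Gas5 from -0.51 to 0.84 and Neat1 from -0.77 to 0.0919. Between Tau+UNC0642 and Tau, Neat1 ranged from -0.17 to 0.69 and Pantr1 from -0.11 to 0.23. Between Tau+UNC0642 and WT, Malat1 ranged from -0.0648 to 0.0779, Neat1 from -0.22 to 0.0733, Miat from -0.36 to 0.0005 and Gas5 from -1.14 to 0.22. Snhg11 kept its direction in all of these fits, from -0.72 to -0.51 in Tau against WT.

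In Tau against WT, 4 members were called with library size alone, with scaling to ribosomal protein mRNAs or without a filter, 5 with a sex term, and 1 with a fold of 1.5 or an adjusted p under 0.05. Between Tau+UNC0642 and Tau, 5 were called with library size alone or with a sex term, 1 with a fold of 1.5 and 0 with an adjusted p. In Tau+UNC0642 against WT, 1 was called with DESeq2 size factors, library size alone, TMM over protein-coding genes, scaling to ribosomal protein mRNAs, at least 10 counts in every library, the replicate block, the DESeq2 Wald test or the compared groups alone, 4 with a sex term, and 0 with a fold of 1.5 or an adjusted p. The cause was not tested. These scalings moved the median of all genes by 0.08 at most. Some values near 0 turned. Gas5 in Tau against WT was -0.0613 with library size alone, -0.0551 with ribosomal protein scaling, -0.0133 with TMM over protein-coding genes and -0.0078 with at least 10 counts in every library. Malat1 in Tau+UNC0642 against WT was -0.0327, -0.0462, -0.0038 and -0.0078 under library size alone, ribosomal protein scaling, TMM over protein-coding genes and the filter of 10 counts. With a sex term, Neat1 in Tau+UNC0642 against Tau was -0.0779 and Miat in Tau+UNC0642 against WT was 0.0002. The members summed to 1354, 1442, 953, 1168, 1330 and 1331 CPM without Malat1 and to 6149 to 8955 CPM with it.

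Replicate numbers did not pair the libraries, which come from different mice, and deviations of same-numbered libraries correlated at -0.034, -0.021 and -0.003. With the replicate block, 2, 3 and 1 members were called in the 3 comparisons, with medians of -0.29, 0.26 and -0.04, and the adjusted p of Snhg11 in Tau against WT was 0.0694 (range over alternatives 4.8e-12 to 0.121). The lowest came with no filter. Depth did not limit the members, whose lowest count was 522.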
